A study of Mus musculus with 23 samples.

Results

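The 8 genes described here encode secreted or shed factors of blood vessels and tissue repair: Edn1, Vegfa, Thbs1, Hbegf, Areg, Ereg, Inhba and Tgfb1. They were taken by name from a table of read counts over 55401 mouse genes, and all 8 were in it. The RNA came from bone marrow-derived macrophages, which are macrophages grown from marrow progenitors in culture. Cells carried either the Selenow knock-out label or the wild-type label, where Selenow encodes the small redox protein selenoprotein W. They were left without treatment (0 h) or given 100 ng/ml lipopolysaccharide (LPS), a bacterial outer membrane component sensed by TLR4, for 4, 8 or 24 h. The labelled knock-out groups held 3, 3, 3 and 2 libraries at 0, 4, 8 and 24 h, and each of the 4 wild-type groups held 3, which makes 23 libraries. The labels give no strain, sex or age, are silent on how the knock-out allele was made, and do not tell which libraries share a mouse or a culture. P-values therefore measure the spread between these libraries, which may be technical. Time in culture and time with LPS cannot be told apart, since no untreated library of a later time was analysed here.

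Endothelin-1, the product of Edn1, is a short peptide that constricts blood vessels, and macrophages are one of its sources outside the endothelium. Vegfa encodes the main growth factor of new blood vessels, whereas Thbs1 encodes thrombospondin-1, a matrix protein that restrains vessel growth through CD36 and CD47 and can release TGF-beta from its latent form. Hbegf, Areg and Ereg encode ligands of the EGF receptor that are made as membrane proteins and shed by ADAM17, with iRhom2 as its partner. Inhba encodes the activin A subunit and Tgfb1 encodes latent TGF-beta 1, both of which signal through SMAD proteins in matrix deposition and wound repair.

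Areg and Ereg are neighbours on chromosome 5, in a cluster of EGF receptor ligands where Epgn lies 39.4 kb before Ereg, Ereg 46.0 kb before Areg and Areg 208.8 kb before Btc. All positions are GRCm38 spans of the count table. Edn1 (ENSMUSG00000021367) spans chr13:42301476-42307990 on the plus strand and Vegfa (ENSMUSG00000023951) spans chr17:46016993-46032369 on the minus strand. Thbs1 (ENSMUSG00000040152) spans chr2:118111876-118127133 and Tgfb1 (ENSMUSG00000002603) spans chr7:25687002-25705077, both on the plus strand. Areg (ENSMUSG00000029378) spans chr5:91139599-91148432, Ereg (ENSMUSG00000029377) chr5:91074622-91093646 and Inhba (ENSMUSG00000041324) chr13:16011851-16031621, all on the plus strand. Tgfb1 lies 9.78 Mb from Selenow on chromosome 7. Reads were summed over all exons of a gene, so the values do not separate UTR from coding exons.

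Promoter windows of 250 bases before the gene start (RefSeq, GRCm38.p6) are shown for 3 members that rose from few or no reads and for Tgfb1, which changed little. They run 5′ to 3′ on the gene's strand, with capitals marking letters of a searched motif found on either strand.
Edn1, chr13:42301226-42301475, plus strand: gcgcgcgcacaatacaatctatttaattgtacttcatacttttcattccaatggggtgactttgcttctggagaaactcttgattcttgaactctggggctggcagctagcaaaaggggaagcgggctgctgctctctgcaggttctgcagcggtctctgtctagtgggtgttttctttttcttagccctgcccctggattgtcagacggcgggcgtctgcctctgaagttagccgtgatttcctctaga
Areg, chr5:91139349-91139598, plus strand: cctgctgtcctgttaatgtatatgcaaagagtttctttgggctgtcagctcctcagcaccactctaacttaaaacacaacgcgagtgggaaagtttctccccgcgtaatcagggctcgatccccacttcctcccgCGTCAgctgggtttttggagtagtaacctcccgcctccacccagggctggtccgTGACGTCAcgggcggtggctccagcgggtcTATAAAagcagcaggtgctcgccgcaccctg
Inhba, chr13:16011601-16011850, plus strand: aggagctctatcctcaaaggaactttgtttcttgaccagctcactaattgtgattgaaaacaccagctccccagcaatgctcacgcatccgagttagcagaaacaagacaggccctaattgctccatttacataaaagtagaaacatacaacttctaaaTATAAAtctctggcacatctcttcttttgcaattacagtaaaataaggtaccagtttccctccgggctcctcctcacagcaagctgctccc
Tgfb1, chr7:25686752-25687001, plus strand: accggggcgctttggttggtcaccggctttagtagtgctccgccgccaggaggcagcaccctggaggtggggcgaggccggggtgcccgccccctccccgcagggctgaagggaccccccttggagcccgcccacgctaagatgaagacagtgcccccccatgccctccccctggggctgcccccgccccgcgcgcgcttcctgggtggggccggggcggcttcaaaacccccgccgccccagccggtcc
The Areg window held the full cAMP response element TGACGTCA 61 bases before the start, which 1.55% of 32851 windows of this length hold, and TATAAA 31 bases before it. The shorter core TGACG of this element occurs within the full element and again on the minus strand 115 bases before the start, and 17.8% of windows hold that core. The Inhba window held TATAAA 91 bases before the start, as 12.4% of windows hold it somewhere. Neither the Edn1 nor the Tgfb1 window held any of the letters searched, which were also the AP-1 site TGANTCA (6.75% of windows), the hypoxia element core ACGTG (16.6%) and the NF-kB site by name (3.90%). Among the 5 members with a window used, the NF-kB site was found only in that of Vegfa, 118 bases before a start lying 8 bases from the annotated one. These matches describe letters and not bound sites.

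Each library held between 39001456 and 41819953 assigned read pairs (reads below) and 21722 to 23575 detected genes, and levels are given as CPM, reads scaled to a common library size, after TMM scaling. The 3 reads taken as the limit of detection correspond to at most 0.0769 CPM before TMM scaling. After it 3 reads can lie higher, as for Ereg in library 18 at 4 h (0.0924 CPM). Selenow ran at 32.6% to 63.9% of the wild-type mean of its time in 7 of the 11 labelled knock-out libraries. In the other 4 (libraries 13, 16, 19 and 22, 1 at each time) it ran at 82.4% to 102%, inside the 85.3% to 113% of wild-type libraries or just below it. The genotype is therefore given throughout as labelled, and several results that rest on these 4 libraries are given without them too. At each time, 1 labelled knock-out and 1 wild-type library also deviated together from their group means. These pairs were libraries 14 and 3, 17 and 6, 20 and 9, and 23 and 12, at 0, 4, 8 and 24 h. Each pair was chosen as the most correlated of its time, at 0.738 to 0.788 over 8914 genes, so these values are high by choice. Chosen on odd-numbered chromosomes alone, the same pairs correlated at 0.755 to 0.816 on the even-numbered ones. No label names such pairs, and whether they deviate alike across times was not tested. Below, these 8 libraries form the second library set, and the first set is the remaining 15. All 10 macrophage markers averaged at least 1 CPM in every group. The summed level of the neutrophil marker list stood higher in all labelled knock-out libraries at 0 h, at 166 to 184 CPM in labelled knock-out and 99.2 to 126 CPM in wild-type libraries, and also at 4 h, at 114 to 131 CPM in labelled knock-out and 68.1 to 87.1 CPM in wild-type libraries. The genotypes overlapped at 8 and 24 h. Of its genes Mmp8 reached 325 CPM, Ngp 63.8, Ltf 41.7 and S100a8 27.4, the others at most 5.41, and Ly6g at most 0.153. The B cell list was also higher in all labelled knock-out libraries at 0 h (147 to 180 CPM, and 108 to 146 CPM in wild-type libraries) and overlapped at later times. Ighm reached 177 CPM in it, and its other genes at most 2.21. Fewer cells of a type and less RNA per cell cannot be told apart in these bulk samples.

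**Figure D1:**
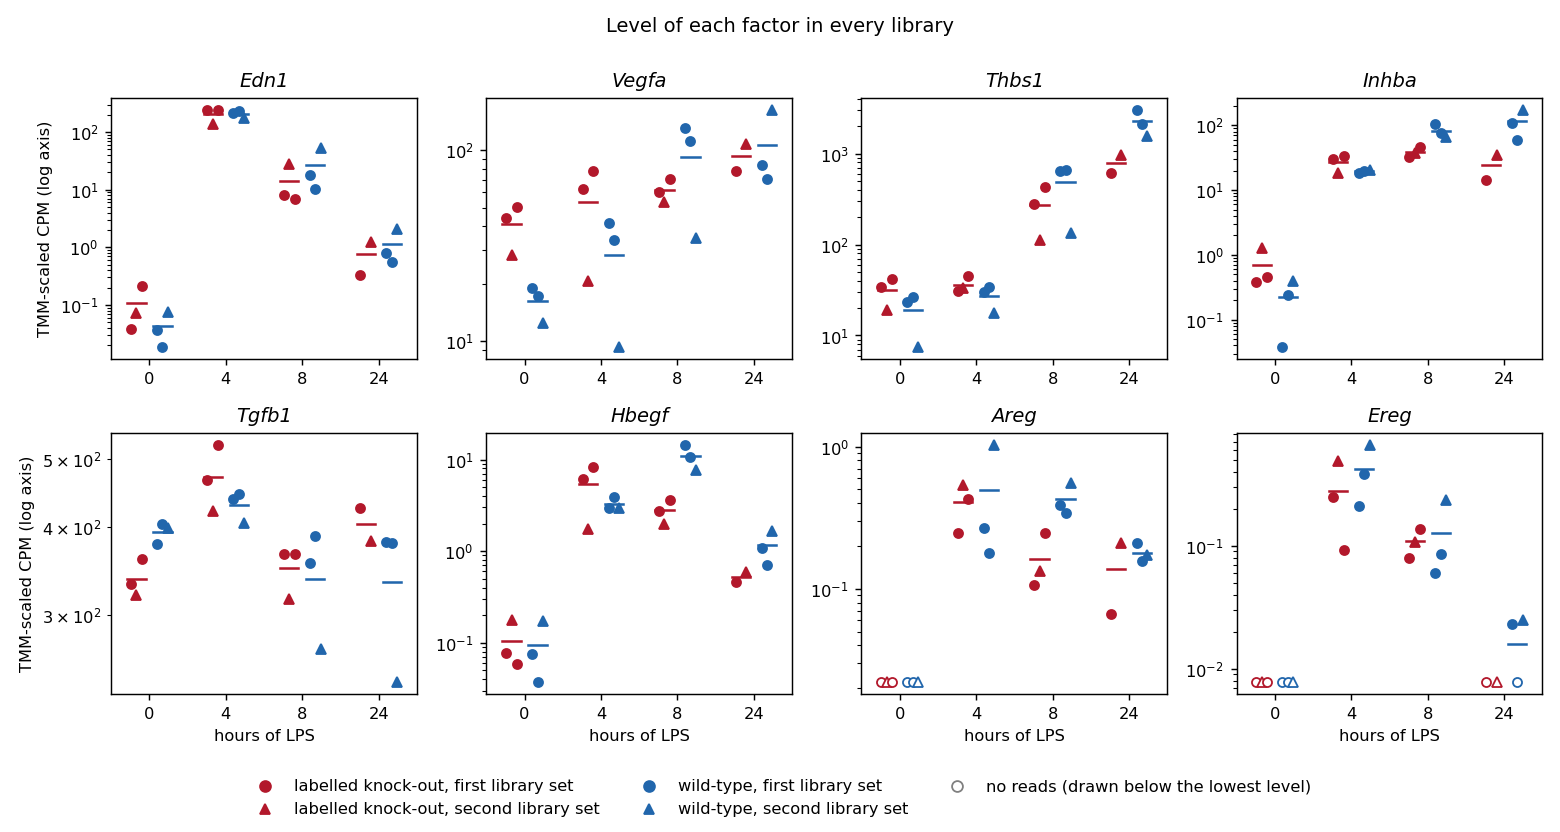
Level of each of the 8 genes in every library (CPM, log axis) by time with LPS, labelled knock-out left of wild-type at each time, with short lines at the group means, circles for the first and triangles for the second library set, and open symbols under the axis range for libraries with no read. Edn1 peaks at 4 h and is back near 1 CPM at 24 h, Thbs1 climbs to 24 h in both genotypes, and Tgfb1 stays between 240 and 524 CPM.

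Most of the 8 genes were higher after LPS than at 0 h. In labelled knock-out cells 6 of 8 rose and none fell at 4 h against 0 h, where 28% of the 18083 genes tested rose and 34.1% fell. At 8 h against 0 h 6 of 8 rose and none fell, against 28.3% and 31.9% of all genes. At 24 h against 0 h 4 of 7 rose and none fell, against 22.6% and 20.8% of all genes. Ereg had no read in either group of that last comparison. In wild-type cells 5 of 8 rose at 4 h (28.2% of all genes rose and 34.8% fell), 7 of 8 at 8 h (30.3% and 35.1%) and 6 of 7 at 24 h (27.8% and 27.3%), and none fell. The median log2 fold change of the 8 genes, with Areg and Ereg at their lower bounds, was 4.18 at 4 h and 3.11 at 8 h in labelled knock-out cells, and 2.84 at 24 h over the 7 genes other than Ereg, where the medians of all genes were -0.11, -0.098 and -0.0014. In wild-type cells it was 4.65 and 4.59, and 3.62 at 24 h over the same 7 genes, where those of all genes were -0.13, -0.11 and -0.0057. Calls are adjusted p under 0.05 in edgeR's quasi-likelihood test with Benjamini-Hochberg adjustment over all genes.

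Between later times calls ran in both directions. At 8 h against 4 h in labelled knock-out cells 1 of the 8 rose and 2 fell, beside 24.4% and 22.8% of all genes, and in wild-type cells 4 rose and 2 fell, beside 24% and 22.8%. At 24 h against 8 h none of the 8 rose and 3 fell in labelled knock-out cells, beside 17.9% and 16.8% of all genes, and in wild-type cells 1 rose and 3 fell, beside 23.1% and 21.9%. With libraries 13, 16, 19 and 22 left out, labelled knock-out cells gave 5 and 6 calls at 4 and 8 h against 0 h and 2 at 8 h against 4 h. Calls over all genes fell too, to 9112, 8983 and 5745 in these comparisons, from 11223, 10886 and 8537 with them. At 24 h this leaves library 23 alone in labelled knock-out cells. In the first library set alone 7, 7 and 6 of the genes were called against 0 h in labelled knock-out cells, and likewise 7, 7 and 6 in wild-type cells. That fit called more of all genes too, 12521, 11762 and 9000 in labelled knock-out and 12514, 12564 and 11071 in wild-type cells, and library 22 alone stands for labelled knock-out cells at 24 h in it.

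**Figure D2:**
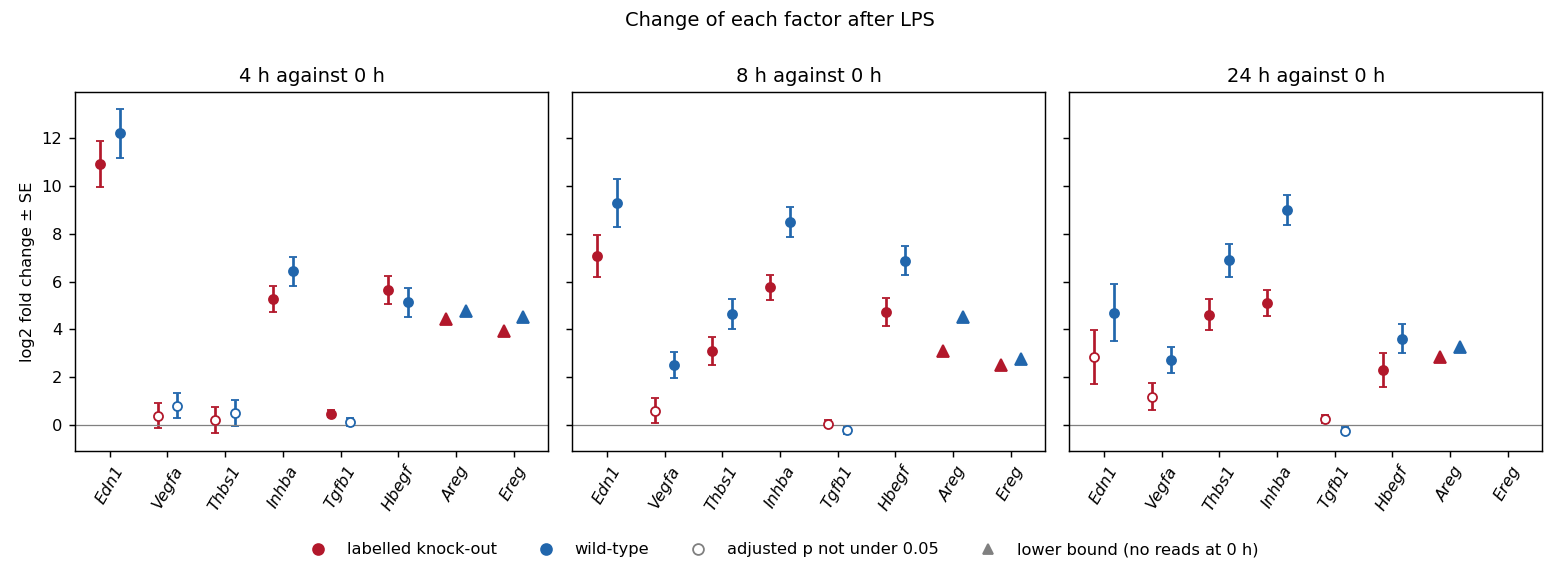
Log2 fold change of each gene against 0 h at 4, 8 and 24 h with LPS, labelled knock-out left of wild-type, with bars for the standard error, filled circles for adjusted p under 0.05 and triangles for lower bounds where no read was found at 0 h. In labelled knock-out cells Edn1 stands at 10.92 at 4 h and 2.84 at 24 h, and Tgfb1 lies at 0.48 and 0.26.

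Edn1 was almost silent before LPS and, by group mean, became the member with the most reads per base of exon at 4 h. Labelled knock-out libraries held 0.0382, 0.0717 and 0.217 CPM at 0 h, 246, 137 and 242 at 4 h, 8.12, 28.3 and 6.78 at 8 h, and 0.33 and 1.22 at 24 h. Wild-type libraries held 0.0374, 0.0185 and 0.0758 CPM at 0 h, 212, 233 and 174 at 4 h, 17.9, 10.2 and 53.9 at 8 h, and 0.79, 0.558 and 2.11 at 24 h. In both genotypes the 4 time groups had no library in common range, whereas at each time the 2 genotypes overlapped. The log2 fold change at 4 h against 0 h was 10.92 ± 0.95 (SE, adjusted p = 1.07e-08) in labelled knock-out cells and 12.20 ± 1.03 (adjusted p = 7.83e-09) in wild-type cells. These sizes are imprecise, since the 0 h groups hold 17 labelled knock-out reads and 7 wild-type reads in all. Edn1 then fell at 8 h against 4 h by 3.85 ± 0.63 (adjusted p = 6.05e-05) in labelled knock-out cells and by 2.92 ± 0.60 (adjusted p = 0.000614) in wild-type cells. At 24 h against 8 h the log2 fold change was -4.23 ± 0.84 (adjusted p = 0.000827) in labelled knock-out cells and -4.58 ± 0.69 (adjusted p = 4.12e-05) in wild-type cells.

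At 24 h Edn1 was still above 0 h in wild-type cells, at a log2 fold change of 4.71 ± 1.19 (adjusted p = 0.00253). For labelled knock-out cells the same difference was 2.84 ± 1.14 and missed the threshold (adjusted p = 0.0512). It passed when any 1 of libraries 8, 9, 11, 12, 15, 19, 20, 21 and 22 was left out, with adjusted p from 0.0265 to 0.05. It also passed in DESeq2 (adjusted p = 0.00702), with a term for the library set (0.000766), with no filter on low counts (0.0318) and in a fit of only the groups compared (0.0398). P-values of any fit by library set may be too small, since the sets were read from these same counts. Between genotypes Edn1 at its peak averaged 208 ± 61.7 CPM in labelled knock-out and 206 ± 29.7 CPM in wild-type cells (SD, n = 3 each), a log2 difference of 0.01 with a 95% interval of -1.07 to 1.10. At 8 h the means were 14.4 ± 12.1 CPM in labelled knock-out and 27.3 ± 23.3 CPM in wild-type cells, and the ratio of labelled knock-out to wild-type was 0.531 in the first library set and 0.526 in the second, while the 3 libraries of each genotype overlapped (log2 difference -0.92 ± 0.57, adjusted p = 0.52). The gene overlaps Gm47118 on the other strand, which averaged 26.1 CPM in labelled knock-out and 27.8 CPM in wild-type cells at 4 h. The counting used no strand, so reads of this pair cannot be told apart.

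Vegfa was expressed without LPS, and its level differed between the library sets within most groups. Labelled knock-out libraries held 44.1, 28.3 and 50.1 CPM at 0 h, 62.2, 20.6 and 77.6 at 4 h, 60.6, 53.7 and 70.7 at 8 h, and 77.7 and 108 at 24 h. Wild-type libraries held 18.9, 17.2 and 12.5 CPM at 0 h, 41.4, 33.9 and 9.27 at 4 h, 130, 111 and 34.5 at 8 h, and 83.6, 71 and 163 at 24 h. The second-set library was the lowest of its group at 0, 4 and 8 h and the highest at 24 h, in both genotypes. In wild-type cells Vegfa rose at 8 h (log2 fold change 2.51 ± 0.55, adjusted p = 0.000568) and at 24 h (2.71 ± 0.55, adjusted p = 0.000412) but not past the threshold at 4 h (0.80 ± 0.53, adjusted p = 0.196). The 4 h value passed without library 6 (1.22, adjusted p = 0.0432). The step at 8 h against 4 h was 1.71 ± 0.53 (adjusted p = 0.0133), and it was lost without library 6 (adjusted p = 0.0587) or library 7 (adjusted p = 0.0648).

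No Vegfa comparison with 0 h passed in labelled knock-out cells, with log2 fold changes of 0.39 ± 0.52 at 4 h, 0.59 ± 0.52 at 8 h and 1.18 ± 0.57 at 24 h (adjusted p = 0.537, 0.335 and 0.102). With a term for the library set Vegfa passed there at 8 h (0.60, adjusted p = 0.02) and at 24 h (1.31, adjusted p = 0.000108), as it did in a fit of only the groups compared (adjusted p = 0.0336 at 8 h and 0.0189 at 24 h). In the first library set alone it passed at all 3 times (0.61, 0.51 and 0.73, adjusted p = 0.000648, 0.00279 and 0.00103). Before LPS every labelled knock-out library stood above every wild-type library, at 40.8 ± 11.2 CPM in labelled knock-out against 16.2 ± 3.3 CPM in wild-type cells (SD, n = 3 each). That log2 difference of 1.34 ± 0.53 did not pass adjustment (adjusted p = 0.292). The ratio was 2.61 in the first library set and 2.27 in the second. At 8 h the order was not shared: the ratio of labelled knock-out to wild-type was 0.543 in the first set and 1.55 in the second.

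Thbs1 climbed after 4 h and reached the highest level per length at 24 h. Labelled knock-out libraries held 34.1, 18.9 and 42.2 CPM at 0 h, 30.8, 33.2 and 45 at 4 h, 282, 113 and 427 at 8 h, and 607 and 957 at 24 h. Wild-type libraries held 23.6, 26.3 and 7.41 CPM at 0 h, 30.5, 33.8 and 17.6 at 4 h, 645, 669 and 133 at 8 h, and 3054, 2141 and 1582 at 24 h. In labelled knock-out cells it rose at 8 h (log2 fold change 3.11 ± 0.59, adjusted p = 0.000173) and at 24 h (4.62 ± 0.65, adjusted p = 1.75e-05) against 0 h. In wild-type cells it rose by 4.66 ± 0.64 at 8 h (adjusted p = 3.86e-06) and by 6.89 ± 0.70 at 24 h (adjusted p = 2.15e-07). At 4 h the groups overlapped with 0 h in both genotypes, at 0.20 ± 0.55 in labelled knock-out cells (adjusted p = 0.775) and 0.51 ± 0.55 in wild-type cells (adjusted p = 0.434). The step at 24 h against 8 h was 1.51 ± 0.60 in labelled knock-out cells (adjusted p = 0.0581) and 2.23 ± 0.57 in wild-type cells (adjusted p = 0.00384). The labelled knock-out step passed without library 3, 9 or 21 (adjusted p = 0.0399, 0.0264 and 0.0339).

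At 24 h no labelled knock-out library reached the lowest wild-type library for Thbs1, with means of 782 ± 248 CPM in labelled knock-out (SD, n = 2) and 2259 ± 743 CPM in wild-type cells (SD, n = 3). The log2 difference of -1.53 ± 0.64 did not pass adjustment (adjusted p = 0.351). The ratio of labelled knock-out to wild-type was 0.233 in the first library set and 0.605 in the second. The first ratio rests on 1 labelled knock-out library, library 22, in which Selenow ran at 102% of the wild-type mean. The second rests on 1 library of each genotype. The summed level of the platelet marker list, cells that store thrombospondin-1, ran from 72.9 to 424 CPM in labelled knock-out and from 28.4 to 456 CPM in wild-type libraries at 24 h, and nearly all of it was Pf4. Of its other genes Ppbp reached 21.7 CPM, Treml1 4.82 and Gp1bb 1.82, while Gp9 was at 0 in some libraries and reached at most 0.0956 CPM. Part of the Thbs1 reads may be those of Gm29233, on the other strand at the same locus, which averaged 52.9 CPM in labelled knock-out and 150 CPM in wild-type cells at 24 h.

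Of the 3 EGF receptor ligands, Hbegf had the most reads, with 2536 over all libraries against 193 for Areg and fewer for Ereg. Labelled knock-out libraries held 0.0765, 0.179 and 0.0591 CPM of Hbegf at 0 h, 6.08, 1.76 and 8.26 at 4 h, 2.77, 1.99 and 3.63 at 8 h, and 0.463 and 0.586 at 24 h. Wild-type libraries held 0.0749, 0.0369 and 0.171 CPM at 0 h, 2.99, 3.9 and 2.97 at 4 h, 14.6, 10.7 and 7.8 at 8 h, and 1.09, 0.714 and 1.66 at 24 h. Hbegf (ENSMUSG00000024486) spans chr18:36504927-36515805 on the minus strand. Its labelled knock-out mean was highest at 4 h and the wild-type mean at 8 h. In the second library set the labelled knock-out level was higher at 8 h (1.99 CPM) than at 4 h (1.76 CPM). Against 0 h Hbegf rose in labelled knock-out cells by 5.65 ± 0.59 at 4 h, 4.71 ± 0.59 at 8 h and 2.30 ± 0.70 at 24 h on the log2 scale (adjusted p = 1.22e-07, 1.69e-06 and 0.0125). In wild-type cells it rose by 5.13 ± 0.60, 6.88 ± 0.61 and 3.62 ± 0.62 (adjusted p = 5.12e-07, 1.81e-08 and 7.31e-05). The labelled knock-out call at 24 h was lost without library 23 (adjusted p = 0.0821). At 24 h the labelled knock-out libraries lay below the wild-type ones (log2 difference -1.14 ± 0.57, adjusted p = 0.456), and at 4 h the ratio of labelled knock-out to wild-type was 2.08 in the first library set and 0.593 in the second.

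Tested over the 3 times together, the difference between genotypes in the LPS response was not called for Hbegf (adjusted p = 0.249). At 8 h against 4 h the log2 fold change was -0.94 ± 0.43 in labelled knock-out cells (adjusted p = 0.0828, and 0.00538 without library 17) and 1.75 ± 0.43 in wild-type cells (adjusted p = 0.00282). At 8 h all 3 labelled knock-out libraries lay below all 3 wild-type libraries, at 2.79 ± 0.818 CPM in labelled knock-out against 11.03 ± 3.41 CPM in wild-type cells (SD, n = 3 each), which is 3.95-fold lower (log2 difference -1.98 ± 0.44, adjusted p = 0.0171). It was the 1 member called lower in labelled knock-out cells at 8 h, where 2.2% of all genes were called either way. The wild-type level was 3.96 times that of labelled knock-out in the first library set and 3.92 times in the second. Without libraries 13, 16, 19 and 22 the difference was again -1.98 with an adjusted p of 0.18. The call was also lost without library 7 (-1.73, adjusted p = 0.11), library 19 (-1.97, adjusted p = 0.0907) or library 20 (-1.79, adjusted p = 0.0713). The fall at 24 h against 8 h was -2.42 ± 0.57 in labelled knock-out cells (adjusted p = 0.00326) and -3.26 ± 0.47 in wild-type cells (adjusted p = 2.38e-05), and the labelled knock-out call was lost without library 22 (adjusted p = 0.0514).

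Areg had no read in any library at 0 h and few at any time. There were, in labelled knock-out libraries, 8, 20 and 14 reads at 4 h, 4, 5 and 9 at 8 h, and 3 and 9 at 24 h. There were, in wild-type libraries, 9, 6 and 39 reads at 4 h, 13, 12 and 19 at 8 h, and 9, 7 and 7 at 24 h. Against a floor of 3 reads over the 0 h group, Areg was at least 21.9-fold higher at 4 h, 8.58-fold at 8 h and 7.22-fold at 24 h in labelled knock-out cells (adjusted p = 6.43e-05, 0.00134 and 0.00482). In wild-type cells it was at least 27.5-fold, 22.9-fold and 9.59-fold higher (adjusted p = 3.12e-05, 5.46e-05 and 0.00103). The labelled knock-out call at 24 h was lost without library 23 (adjusted p = 0.0688). At 8 h the labelled knock-out libraries lay below the wild-type ones, at 0.163 ± 0.0745 CPM in labelled knock-out against 0.430 ± 0.115 CPM in wild-type cells (SD, n = 3 each), a log2 difference of -1.41 ± 0.64 that did not pass adjustment (adjusted p = 0.344). At 8 h against 4 h Areg changed by -1.33 ± 0.64 in labelled knock-out cells (adjusted p = 0.1, and 0.0294 without library 6) and at 24 h against 8 h by -1.26 ± 0.61 in wild-type cells (adjusted p = 0.11, and 0.0338 without library 6).

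Ereg had the fewest reads of the 8 genes. Labelled knock-out libraries held 8, 18 and 3 reads at 4 h, 3, 4 and 5 at 8 h, and none at 0 or 24 h. Wild-type libraries held 7, 13 and 25 reads at 4 h, 2, 3 and 8 at 8 h, and 1, 0 and 1 at 24 h, with none at 0 h. It was at least 15.1-fold higher at 4 h and 5.72-fold higher at 8 h than at 0 h in labelled knock-out cells (adjusted p = 0.000216 and 0.00405), and at least 22.9-fold and 6.78-fold higher in wild-type cells (adjusted p = 5.66e-05 and 0.00237). At 24 h against 8 h Ereg was at least 3.17-fold lower in labelled knock-out cells (adjusted p = 0.0266), a call lost without any 1 of libraries 20 to 23 (adjusted p from 0.0517 to 0.129). In wild-type cells the fall at 8 h against 4 h (-1.73 ± 0.65, adjusted p = 0.0425) was lost without any 1 of 9 libraries (5, 6, 7, 8, 10, 16, 19, 20 and 21, adjusted p from 0.0505 to 0.193). The wild-type fall at 24 h against 8 h (-3.02 ± 1.09, adjusted p = 0.0373) was lost without any 1 of libraries 9 to 12 (adjusted p from 0.0559 to 0.188). In labelled knock-out cells the change at 8 h against 4 h was -1.37 ± 0.69 (adjusted p = 0.12), and it passed without library 18 (adjusted p = 0.0449).

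Inhba rose in both genotypes by 4 h and had the largest estimated genotype difference of the 8 genes, at 24 h. The labelled knock-out libraries had 0.382, 1.27 and 0.453 CPM at 0 h, 30.2, 18.6 and 33.8 at 4 h, 32.5, 36.7 and 45.8 at 8 h, and 14.3 and 34.6 at 24 h. Wild-type libraries held 0.0374, 0.24 and 0.398 CPM at 0 h, 18, 19.6 and 20.6 at 4 h, 104, 75.3 and 65.8 at 8 h, and 110, 58.8 and 175 at 24 h. Labelled knock-out levels lay in 1 overlapping band from 4 to 24 h, whereas the wild-type libraries of 8 and 24 h stood above all those of 4 h. Against 0 h the log2 fold change in labelled knock-out cells was 5.28 ± 0.53 at 4 h, 5.76 ± 0.54 at 8 h and 5.11 ± 0.54 at 24 h (adjusted p = 7.24e-08, 4.34e-08 and 7.02e-07). In wild-type cells it was 6.43 ± 0.60, 8.51 ± 0.63 and 8.99 ± 0.63 (adjusted p = 2.64e-08, 2.06e-09 and 2.8e-09). The 0 h groups hold 114 reads in labelled knock-out and 36 in wild-type cells, which limits these sizes.

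At 24 h the 2 labelled knock-out libraries lay below all 3 wild-type libraries for Inhba, at 24.5 ± 14.4 CPM in labelled knock-out (SD, n = 2) against 115 ± 58.2 CPM in wild-type cells (SD, n = 3). That is 4.68-fold lower (log2 difference -2.23 ± 0.50, adjusted p = 0.0307), and Inhba was the 1 member called at 24 h, where 1.19% of all genes were called. The wild-type level was 5.91 times that of labelled knock-out in the first library set and 5.05 times in the second. Each of these ratios rests on 1 labelled knock-out library, 22 in the first set and 23 in the second. The call was lost without library 10 (-2.26, adjusted p = 0.0599), library 12 (-1.80, adjusted p = 0.105) or library 22 (-1.72, adjusted p = 0.406). Without libraries 13, 16, 19 and 22 it was -1.72 (adjusted p = 0.572), with 1 labelled knock-out library left at 24 h whose spread is taken from the other groups. At 8 h the libraries did not overlap either, at 38.3 ± 6.79 CPM in labelled knock-out against 81.8 ± 19.9 CPM in wild-type cells (SD, n = 3 each), with ratios of labelled knock-out to wild-type of 0.436 and 0.557 in the 2 library sets, but the log2 difference of -1.09 ± 0.42 did not pass adjustment (adjusted p = 0.228). Before LPS the means ran the other way, 0.702 ± 0.494 CPM in labelled knock-out against 0.225 ± 0.181 CPM in wild-type cells with overlapping libraries (log2 difference 1.66 ± 0.67, adjusted p = 0.299). Reads of Inhba cannot be told apart from those of B230303A05Rik and Gm48444 on the other strand.

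Tgfb1 was high at every time and moved least. In the labelled knock-out libraries it stood at 331, 320 and 361 CPM at 0 h, 467, 421 and 524 at 4 h, 366, 316 and 366 at 8 h, and 426 and 383 at 24 h. Wild-type libraries held 379, 404 and 398 CPM at 0 h, 438, 445 and 405 at 4 h, 355, 389 and 268 at 8 h, and 380, 380 and 240 at 24 h. Tgfb1 rose in labelled knock-out cells at 4 h against 0 h by 0.48 ± 0.16 on the log2 scale (adjusted p = 0.0119, and 0.0578 without library 18 or 0.0838 without libraries 13, 16, 19 and 22). It fell at 8 h against 4 h by 0.43 ± 0.16 (adjusted p = 0.0298), a call lost without library 16, 18 or 20 (adjusted p = 0.0577, 0.115 and 0.103). No Tgfb1 comparison with 0 h passed in wild-type cells over all libraries, whereas with a term for the library set it was lower at 8 h (-0.29, adjusted p = 0.00922) and at 24 h (-0.33, adjusted p = 0.00404), and in the first set alone it was higher at 4 h (0.21, adjusted p = 0.0327). In labelled knock-out cells that term put it higher at 24 h (0.27, adjusted p = 0.0272). In wild-type cells 8 h against 4 h gave -0.35 ± 0.16 (adjusted p = 0.0741, and 0.0402 without library 8 or 0.0147 without library 12). Before LPS all 3 labelled knock-out libraries stood below all 3 wild-type ones, at 338 ± 20.8 CPM in labelled knock-out against 394 ± 13.2 CPM in wild-type cells. The ratio of labelled knock-out to wild-type was 0.884 and 0.804 in the 2 library sets, and the difference was not called. At 24 h both labelled knock-out libraries stood above all 3 wild-type ones (404 ± 30.4 CPM in labelled knock-out against 334 ± 80.8 CPM in wild-type cells), a log2 difference of 0.28 ± 0.17 that did not pass (adjusted p = 0.551). Averaged over times, the 2 genotypes differed by 0.06 on the log2 scale with a 95% interval of -0.10 to 0.22. The second-set library was the lowest of its group in 7 of the 8 groups.

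Set side by side per kilobase of exon, the member with the highest group mean changed with time. Tgfb1 led in labelled knock-out cells at 0 h with 67 CPM per kb, Edn1 at 4 h with 97.3, Tgfb1 at 8 h with 69.3 and Thbs1 at 24 h with 129. In wild-type cells Tgfb1 led at 0 h with 78.1 CPM per kb, Edn1 at 4 h with 96.4, Thbs1 at 8 h with 79.4 and Thbs1 at 24 h with 372. Not every library kept this order. Labelled knock-out library 17 at 4 h held 64.0 CPM per kb of Edn1 and 83.6 of Tgfb1. Wild-type library 9 at 8 h held 21.9 of Thbs1 and 53.2 of Tgfb1. The EGF receptor ligands stayed low on this scale: at 4 h Hbegf, Areg and Ereg held 1.11, 0.335 and 0.0667 CPM per kb in labelled knock-out cells and 0.679, 0.406 and 0.101 in wild-type cells. Ordered by level over the 8 groups, Edn1 fell into 4 pairs of groups, each pair the 2 genotypes at 1 time, with no overlap between pairs. For Thbs1 the wild-type 24 h group stood alone at the top, with labelled knock-out at 24 h and both genotypes at 8 h next and overlapping. For Hbegf both genotypes at 4 and 8 h formed 1 chain of overlapping neighbours above the rest. Inhba had wild-type cells at 24 and 8 h on top, then labelled knock-out at 8, 4 and 24 h with wild-type at 4 h, then both genotypes at 0 h.

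Between genotypes at matched times few of the 8 genes passed, as few genes did in all. Libraries said not to overlap between genotypes are a description only, since the share of all genes separating this way was not counted. With 2 or 3 libraries in a group such a separation can arise by chance. None of 6 tested members was called at 0 h, where 1.52% of all genes were, and 2 had an unadjusted p under 0.05 in edgeR (Vegfa and Inhba). None of 8 was called at 4 h (1.24% of all genes), and none had such a p. At 8 h and at 24 h 1 member each was called, Hbegf and Inhba, both lower in labelled knock-out cells. Averaged over the 4 times none of 6 was called, against 6.27% of all genes, and none had an unadjusted p under 0.05. DESeq2 and limma-voom also called none of them at 0 h, at 4 h or on average. The difference between genotypes in the response to LPS was called for 0.0442% of all genes at 4 h, for 0.0442% at 8 h and for 0% at 24 h. Of the 6 members with an estimate, edgeR called none at any time, and 0, 3 and 3 had an unadjusted p under 0.05 at 4, 8 and 24 h. Among them was Inhba, at -2.75 ± 0.78 at 8 h (adjusted p = 0.21) and -3.89 ± 0.82 at 24 h (adjusted p = 0.137). DESeq2 called 1 member at 8 h and 1 at 24 h, and limma-voom none.

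**Figure D3:**
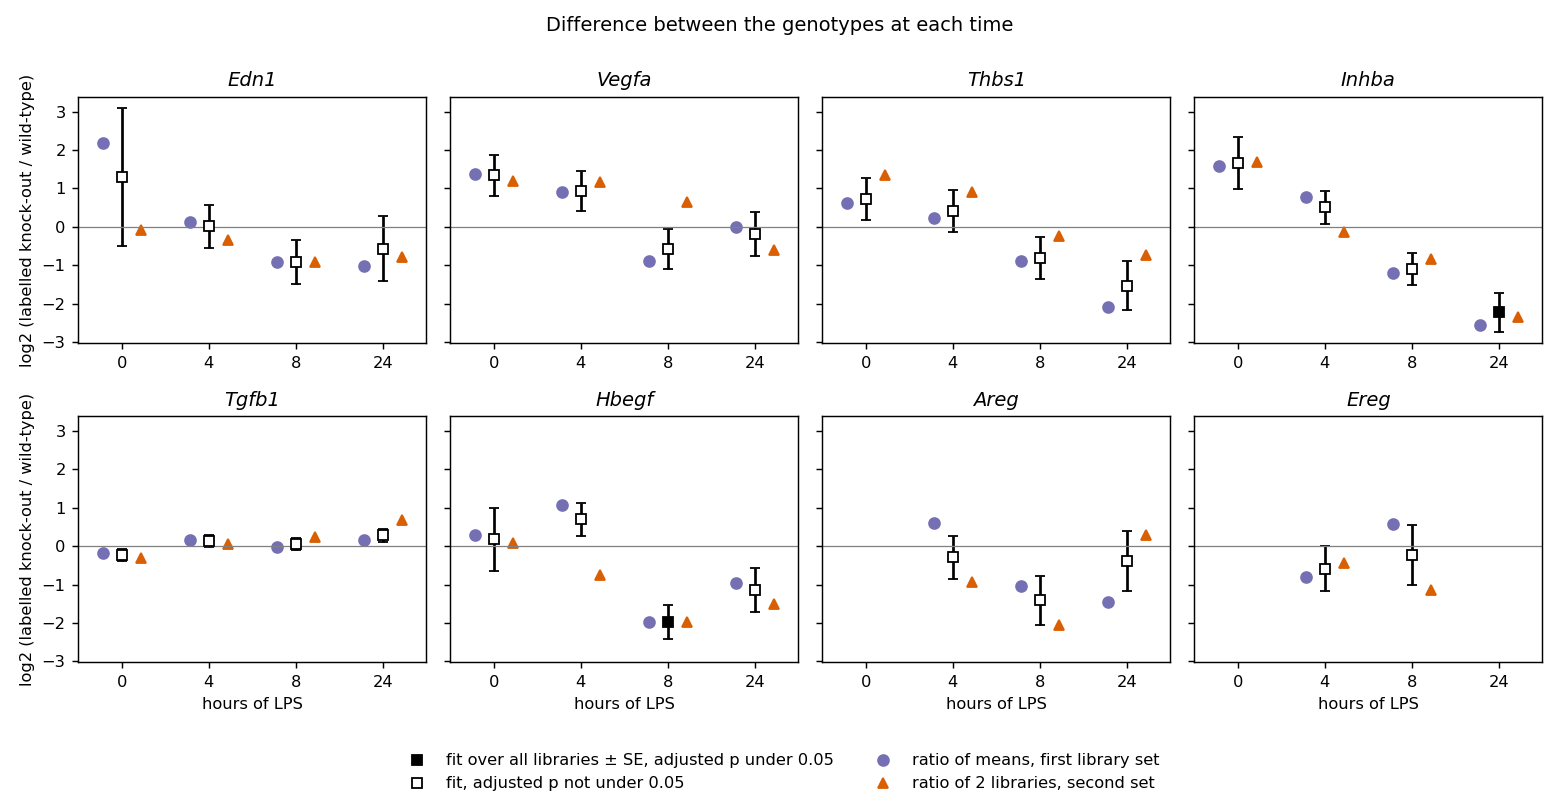
Log2 difference of labelled knock-out over wild-type for each gene at each time, drawn as a square with its standard error, filled for adjusted p under 0.05, between the log2 ratio of the first library set (circle) and of the second (triangle). Hbegf at 8 h (-1.98) and Inhba at 24 h (-2.23) are the 2 filled squares.

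Fitting the library set as a separate term within every time gave more calls. There, 2 members differed between genotypes at 0 h, Vegfa by 1.32 (adjusted p = 0.000841) and Thbs1 by 0.84 (adjusted p = 0.0388), and at 4 h Vegfa by 0.97 (adjusted p = 0.0141). At 8 h Edn1 (-0.92), Hbegf (-1.98) and Inhba (-1.08) were lower in labelled knock-out cells (adjusted p = 0.0014, 5.72e-05 and 0.00239). At 24 h Thbs1 (-1.49), Hbegf (-1.23) and Inhba (-2.46) were lower and Tgfb1 (0.38) higher (adjusted p = 0.00288, 0.0477, 7.44e-06 and 0.0146). This fit called 2467, 842, 2931 and 3530 of all genes at the 4 times. In the first set alone, with its 2 or 1 labelled knock-out libraries a time, Vegfa was higher at 0 h (1.39) and 4 h (0.90) and lower at 8 h (-0.89), while Hbegf was higher at 4 h (1.07) and lower at 8 h (-1.99). The summed level of the fibroblast and stroma marker list ran from 3.92 to 26.5 CPM in labelled knock-out and 2.95 to 3.75 CPM in wild-type libraries at 0 h, and from 37.6 to 111 CPM in labelled knock-out and 30.8 to 42.8 CPM in wild-type libraries at 4 h. It ran from 16.6 to 100.5 CPM in labelled knock-out and 11.6 to 15.8 CPM in wild-type libraries at 8 h, and from 8.33 to 40.6 CPM in labelled knock-out and 7.73 to 12.4 CPM in wild-type libraries at 24 h. The genotypes did not overlap at 0 and 8 h and overlapped at 4 and 24 h. Its genes Pdgfrb, Col1a1 and Col1a2 reached 71.6, 40.1 and 22.7 CPM, and Col3a1, Dcn, Lum, Pdgfra and Thy1 were at 0 in at least 1 library. Its part in the results was not tested.

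**Figure D4:**
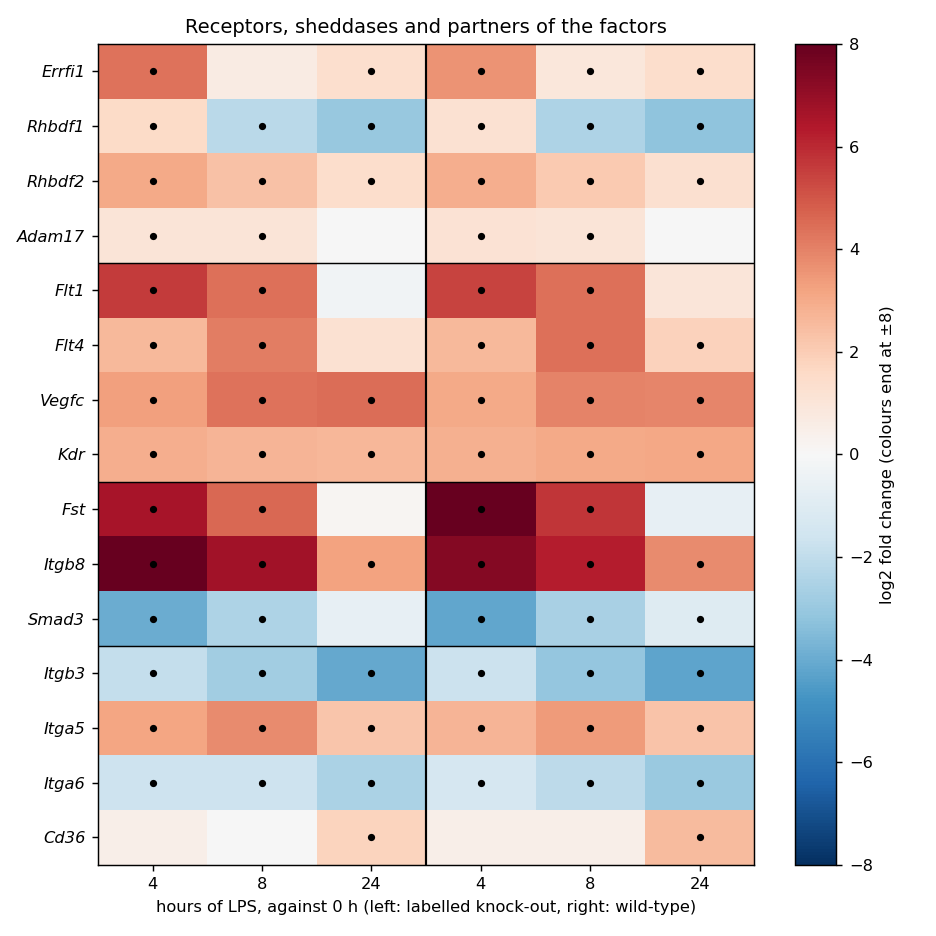
Log2 fold change against 0 h (colour, ending at ±8) of 15 genes of 4 pathway lists at 4, 8 and 24 h, labelled knock-out left of wild-type, with a dot for adjusted p under 0.05. At 4 h Itgb8 reaches 8.02 in labelled knock-out and 7.35 in wild-type cells, and Smad3 lies at -3.94 in labelled knock-out and -4.16 in wild-type cells.

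Counts for 4 pathway lists at 4 h stand beside the shares of all genes, of which 28% rose and 34.1% fell in labelled knock-out and 28.2% rose and 34.8% fell in wild-type cells. In the list of the EGF family and its shedding, 12 of 18 genes were tested, and at 4 h against 0 h 5 rose and 2 fell in each genotype. Its median log2 fold change was 0.28 in labelled knock-out and -0.0032 in wild-type cells, beside -0.11 in labelled knock-out and -0.13 in wild-type cells for all genes. Changes of single genes are given as log2 fold changes against 0 h. Rhbdf2, which encodes the ADAM17 partner iRhom2, averaged 618 ± 107 CPM in labelled knock-out and 672 ± 99.8 CPM in wild-type cells at 4 h, up by 3.04 ± 0.18 in labelled knock-out cells (adjusted p = 1.07e-10) and 2.90 ± 0.18 in wild-type cells (adjusted p = 1.73e-10). Adam17, the sheddase itself, rose by 1.02 ± 0.12 in labelled knock-out cells (adjusted p = 7.42e-07) and 1.16 ± 0.12 in wild-type cells at 4 h (adjusted p = 1.28e-07). Errfi1, an inhibitor inside the cell of the EGF receptor, rose at 4 h by 4.37 ± 0.35 in labelled knock-out cells (adjusted p = 3.54e-09) and 3.61 ± 0.33 in wild-type cells (adjusted p = 2.55e-08). Rhbdf1, the related iRhom1 gene, rose at 4 h by 1.52 ± 0.40 in labelled knock-out cells (adjusted p = 0.00264) and 1.23 ± 0.40 in wild-type cells (adjusted p = 0.0115, and 0.0595 without library 3 or 0.0522 without library 5). At 24 h Rhbdf1 was below 0 h, with -3.03 ± 0.54 in labelled knock-out cells (adjusted p = 0.000172) and -3.21 ± 0.47 in wild-type cells (adjusted p = 1.53e-05).

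In the list of the VEGF and endothelin families 14 of 17 genes were tested. At 4 h against 0 h 8 rose and 4 fell in each genotype, with medians of 1.60 in labelled knock-out and 1.70 in wild-type cells. Flt1, which encodes VEGF receptor 1, rose at 4 h by 5.58 ± 0.51 in labelled knock-out cells (adjusted p = 2.38e-08) and 5.41 ± 0.51 in wild-type cells (adjusted p = 2.88e-08). Kdr, which encodes VEGF receptor 2, was up at 24 h by 2.66 ± 0.21 in labelled knock-out cells (adjusted p = 2.18e-08) and 3.09 ± 0.20 in wild-type cells (adjusted p = 9.34e-10). Flt4, which encodes VEGF receptor 3, rose at 8 h by 4.12 ± 0.49 in labelled knock-out cells (adjusted p = 8.12e-07) and 4.38 ± 0.48 in wild-type cells (adjusted p = 2.58e-07), and its ligand gene Vegfc by 4.33 ± 0.49 in labelled knock-out cells (adjusted p = 4.45e-07) and 3.95 ± 0.47 in wild-type cells (adjusted p = 7.35e-07). Of the endothelial marker list, Kdr and Vwf held most of the summed level of 29.2 to 148 CPM in labelled knock-out and 40.9 to 161 CPM in wild-type libraries, while Cdh5 reached 20.1 CPM, Pecam1 10.2 CPM and Cldn5 at most 0.0537 CPM.

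Epas1, which encodes the hypoxia-inducible factor HIF-2alpha, was the gene of that list called between genotypes at every time, and it is named after its values were seen. It averaged 5.79 ± 0.269, 3.17 ± 0.323, 0.882 ± 0.069 and 0.694 ± 0.451 CPM at 0, 4, 8 and 24 h in labelled knock-out cells. The wild-type means were 60.4 ± 15.5, 35.2 ± 4.92, 8.66 ± 1.54 and 9.33 ± 2.16 CPM (SD, n = 3 each, and n = 2 for labelled knock-out cells at 24 h). At no time did a library of one genotype reach those of the other, and this includes the 4 labelled knock-out libraries whose Selenow level was near that of wild-type. The log2 differences were -3.38 ± 0.25, -3.47 ± 0.25, -3.30 ± 0.27 and -3.74 ± 0.32 (adjusted p = 3.61e-08, 2.62e-08, 1.79e-07 and 5.01e-07).

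Of the TGF-beta and activin list 31 of 36 genes were tested, and at 4 h 13 rose and 9 fell in labelled knock-out cells and 13 rose and 11 fell in wild-type cells, with medians of 0.43 in labelled knock-out and 0.60 in wild-type cells. Fst, whose product follistatin binds and blocks activin, rose at 4 h by 6.62 ± 0.59 in labelled knock-out cells (adjusted p = 1.59e-08) and 7.99 ± 0.65 in wild-type cells (adjusted p = 4.75e-09). Itgb8, a subunit of an integrin that activates latent TGF-beta, rose by 8.02 ± 0.94 in labelled knock-out cells (adjusted p = 5.13e-07) and 7.35 ± 0.92 in wild-type cells (adjusted p = 1.12e-06). Smad3, which carries the signal of both factors, fell by 3.94 ± 0.41 in labelled knock-out cells (adjusted p = 1.33e-07) and 4.16 ± 0.42 in wild-type cells (adjusted p = 7.2e-08). Furin, which cleaves pro-TGF-beta and pro-activin and was named after its values were seen, was higher in labelled knock-out cells at 4 h, at 861 ± 126 CPM in labelled knock-out against 311 ± 18.8 CPM in wild-type cells (log2 difference 1.47 ± 0.25, adjusted p = 0.00231), and at 8 h, at 597 ± 184 CPM in labelled knock-out against 200 ± 43.3 CPM in wild-type cells (1.58 ± 0.25, adjusted p = 0.000925).

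Of the thrombospondin list 14 of 15 genes were tested, and at 4 h 5 rose and 4 fell in each genotype, shares close to those of all genes, with medians of 0.49 in labelled knock-out and 0.42 in wild-type cells. Cd36, a thrombospondin-1 receptor, was up at 24 h against 0 h by 1.78 ± 0.65 in labelled knock-out cells (adjusted p = 0.0325) and 2.51 ± 0.62 in wild-type cells (adjusted p = 0.00205). The labelled knock-out call was lost without library 14 (adjusted p = 0.0918) or library 15 (adjusted p = 0.0815). The change was 1.45 without library 22, 2.05 without library 23 and 1.72 without libraries 13, 16, 19 and 22. Each of these fits leaves 1 labelled knock-out library at 24 h, and the call did not hold in them. Of the integrin subunits, Itga5 rose at 8 h by 3.76 ± 0.32 in labelled knock-out cells (adjusted p = 1.27e-08) and 3.38 ± 0.31 in wild-type cells (adjusted p = 3.16e-08), while Itgb3 was lower at 24 h, with -4.11 ± 0.41 in labelled knock-out cells (adjusted p = 3.67e-07) and -4.23 ± 0.35 in wild-type cells (adjusted p = 1.86e-08). Itga6 was below 0 h at 24 h, with -2.53 ± 0.30 in labelled knock-out cells (adjusted p = 2.55e-06) and -3.00 ± 0.26 in wild-type cells (adjusted p = 3.5e-08), and it was higher in labelled knock-out cells at 0 h (group means 352 ± 26.6 CPM in labelled knock-out against 147 ± 29.5 CPM in wild-type cells, log2 difference 1.26 ± 0.25, adjusted p = 0.00946, and 0.0739 without library 3). Itga6 was also called higher in labelled knock-out cells at 24 h. There the log2 difference was 0.904 without library 22, and also without libraries 13, 16, 19 and 22. Either fit leaves 1 labelled knock-out library at 24 h, and the call did not hold. Adamts1, a protease with thrombospondin repeats named after its values were seen, was lower in labelled knock-out cells at 8 h, at 0.198 ± 0.0285 CPM in labelled knock-out against 2.79 ± 0.878 CPM in wild-type cells (-3.82 ± 0.59, adjusted p = 0.000565). It was also called lower at 0 h. That call was lost without, among others, library 3 (-1.69, adjusted p = 0.301), library 13 (-2.24, adjusted p = 0.181) or library 15 (-2.26, adjusted p = 0.208).

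Over the 8 group means of log2 CPM, the genes most like each member were found among 10173 genes. Edn1 ran closest to Tnfaip3, Tnf and Vps54 (Pearson r = 0.998 each), and Hbegf to Osm (0.995), Gadd45g (0.992) and Phospho2 (0.991). For Areg these were Ugcg (0.993), Tank (0.993) and Gpbp1 (0.990), and for Ereg Steap4 (0.991), Ube2e2 (0.989) and Tnfsf8 (0.989). Inhba was closest to Ggps1 (0.995), Fbxo38 (0.993) and Ankrd33b (0.991), and Thbs1 to Fbxo28 (0.991), Taf12 (0.988) and Ensa (0.987). Vegfa gave lower values, with Cdk11b (0.978), Prpf6 (0.967) and Bbip1 (0.953), as did Tgfb1 with Ndufb4 (0.959), Eif4a3 (0.940) and Bmp8b (0.935). Among the members the closest pairs were Edn1 with Ereg (0.970), Hbegf with Areg (0.955) and Thbs1 with Vegfa (0.909). The 8 points share libraries and a common time course, and the highest of many correlations is high by choice.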

How the data were processed

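Libraries of 100 base paired-end reads were made from total RNA, per the labels' protocols. Reads were aligned to GRCm38 with HISAT2 (version not given in the sources used here) and counted with featureCounts, per the submitters' processing notes. The deposited file holds whole-number counts of read pairs over the exons of each gene for 23 libraries, made with featureCounts 2.0.1 on Ensembl release 101, per the file headers, with no strand setting and with reads over several genes counted for each. Gene names came from a reference table of Ensembl IDs and symbols, and 55141 of 55401 IDs matched. Every count column was matched to 1 sample by its label.

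Values of CPM were computed here after TMM scaling, and levels per kilobase from the exonic length in the same file. Genes passing edgeR's filterByExpr (18083) were fitted in 1 model of 8 groups with edgeR 4.0.16 in R 4.3.3 and tested with its quasi-likelihood F-test. Benjamini-Hochberg adjustment was made within each of the comparisons. Alternatives were RLE and upper-quartile scaling, no filter and a filter of 1 CPM, DESeq2 1.42.0, limma-voom 3.58.1, a fold of 1.5, an adjusted p under 0.01, only the groups compared, and fits without single libraries. The first library set alone was added after the values were seen. A gene with no read in a group has no fitted fold, and a bound against 3 reads over that group is given. No 2 libraries of a group agreed within sampling noise (chi-square per degree of freedom at least 6.93). The scripts were tested on simulated counts. The 8 genes, the pathway lists and the marker lists were chosen with earlier results of these data known. Named pathway genes were the 4 of each list with the largest log2 fold change against 0 h in wild-type cells among genes called there and reaching 5 CPM in a group, and others are said to be named after their values were seen. 1 of these genes is not reported here.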

Additional observations from a re-analysis of the deposited data

How the results depend on the processing

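Counts below are of the 8 genes called. Scaling by RLE or upper quartiles moved none of their calls, and upper-quartile scaling shifted the median of all genes by at most -0.109 (24 h against 0 h in labelled knock-out cells). With a term for the library set, 7 genes were called at 24 h against 0 h in labelled knock-out cells (4 without the term), 6 at 8 h against 4 h (3 without) and 7 at 24 h against 8 h (3 without), and in wild-type cells 7 at 24 h against 8 h (4 without). Calls over all genes rose too, to 10610, 10967 and 9745 in these labelled knock-out comparisons (7849, 8537 and 6272 without the term). In the wild-type comparison they rose to 10788 (8128 without). Between genotypes that term gave 2, 1, 3 and 4 calls at 0, 4, 8 and 24 h and 1 on average, where the fit without it gave 0, 0, 1 and 1 and 0 on average. On average the term called 4321 of all genes, against 1134 without it. The first set alone gave 1, 2 and 5 calls at 0, 4 and 8 h. It called 1199, 674 and 2650 of all genes there, against 274, 224 and 397 over all libraries. At 24 h library 22 alone stands for labelled knock-out cells in that set. For the difference in LPS response the term gave 3 calls at 8 h and 4 at 24 h, the first set alone 2 and 3, DESeq2 1 and 1, and no filter on low counts 1 at 24 h, against 0 and 0. Testing against a fold of 1.5, an adjusted p under 0.01, or leaving out libraries 13, 16, 19 and 22 each left 0 genotype calls at 8 h and 0 at 24 h, and a fit of only the groups compared left 0 at 24 h. Without those 4 libraries, library 23 alone stands for labelled knock-out cells at 24 h. In wild-type cells 3 genes, against 5, were called at 4 h against 0 h with at least 1 CPM in 3 libraries, which drops Areg and Ereg, and 3 in a fit of only the groups compared. The cause of the other moves was not tested. Vegfa in wild-type cells at 24 h against 8 h was 0.20 and not called, but -0.66 and called in the first library set alone, and Vegfc in labelled knock-out cells at 24 h against 8 h was 0.14 and not called, but -0.495 and called there.

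Leaving out each library in turn gave, for labelled knock-out cells, 5 to 6 calls at 4 h, 6 to 6 at 8 h and 2 to 5 at 24 h against 0 h, 2 to 4 at 8 h against 4 h and 1 to 4 at 24 h against 8 h. For wild-type cells it gave 5 to 6, 7 to 7 and 6 to 6 calls against 0 h, 4 to 7 at 8 h against 4 h and 3 to 5 at 24 h against 8 h. Between genotypes it gave 0 to 0 at 0 and 4 h, 0 to 1 at 8 h, 0 to 1 at 24 h and 0 to 0 on average and in each difference in LPS response. No paired analysis was possible because the library numbers run from 1 to 23 and no number is shared between groups, and the term for the library set above rests on the counts, not on labels.

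Over all genes, the test against a fold of 1.5 called 7289, 6444 and 3763 genes at 4, 8 and 24 h against 0 h in labelled knock-out cells (11223, 10886 and 7849 without it) and 7384, 7509 and 5286 in wild-type cells (11382, 11824 and 9963). Between genotypes 274, 224, 397 and 216 genes were called at 0, 4, 8 and 24 h, against 113, 144, 179 and 93 without libraries 13, 16, 19 and 22, and DESeq2 called 527 at 0 h, 649 at 8 h and 429 at 24 h. For the difference in LPS response 8, 8 and 0 genes were called at 4, 8 and 24 h, against 158, 2302 and 2957 with the library set term, 68, 1667 and 787 in the first set alone and 36, 202 and 131 in DESeq2. At 24 h 1835 genes had an unadjusted p under 0.05 and limma-voom called 2. Depth limits Areg and Ereg most, where 3 reads over a group are the floor.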
